A study of Homo sapiens with 2 samples.

Results

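Metallothioneins are small cysteine-rich proteins that bind zinc and copper and buffer cells against cadmium and oxidants. Their genes are switched on by MTF1, a zinc finger transcription factor that senses free zinc, enters the nucleus and binds metal response elements, short motifs repeated upstream of these genes. Glucocorticoids and oxidative stress also raise their transcripts. The family was examined in 2 arrays, 1 of an H6c7 derivative that expresses an introduced K-ras oncogene and 1 of the parental H6c7 line, duct epithelium of human pancreas made immortal by papillomavirus genes. The background of immortalising genes is shared by both lines, and the labels name neither a vector control nor whether the K-ras cells were a clone or a pool. Probe sets were taken when the array annotation gave exactly 1 gene symbol and that symbol was MT1E, MT1F, MT1G, MT1H, MT1M, MT1X, MT2A or MTF1. These 8 genes, of 11963 named by a probe set with a single symbol, were covered by 13 of 22283 probe sets on the Affymetrix U133A array, 11 for the 7 metallothioneins and 2 for MTF1.

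Each line was measured on 1 array, so no value below has a replicate error, and no difference between the lines was tested. A signal is the deposited intensity of a probe set after both arrays were scaled to the same trimmed mean. Signals under a floor of 46.9, the higher of the arrays' medians, were treated as not measured, and a ratio against the floor is a bound. The threshold for calling a probe set or gene different was a ratio of 2-fold or more. The median log2 ratio of 9416 probe sets above the floor in both lines was 0.10. Between probe sets of the same gene the log2 ratio had a pooled standard deviation of 0.46 over 1671 genes, a technical spread that says nothing about cultures. Of 9 duct epithelial markers with a probe set 8 were measured. The summed signal of all 9 was 16993 in the K-ras line, against 18249 in the parental line. Of the 8, 3 passed 2-fold lower in K-ras cells, namely the duct keratin KRT19 (2.74-fold), the adhesion molecule EPCAM (2.08-fold) and the transcription factor SOX9 (2.05-fold, with 0.04 on the log2 scale from a further probe set), and none was 2-fold higher. Over all 7693 measured genes 14.4% passed 2-fold lower and 9.97% higher. KRT7 had a log2 ratio of -0.32, CDH1 -0.03 with -0.51 from a further probe set, and MUC1 a bound of 0.31 on an _x_at probe set. The keratins KRT8 and KRT18, both on _x_at probe sets, had log2 ratios of 0.88 and 0.38, and KRT18 alone gave 8606 of the sum in the K-ras line and 6622 of it in the parental line. The chloride channel CFTR, a defining duct gene, was below the floor in both lines. Of 5 lists of markers of other cell types, 4 held 1 to 4 measured genes and the islet list had none, with no measured gene at least 2-fold different. Summed over each of these lists, with signals below the floor included, signals were 69.2 to 371 in the K-ras line, against 32.8 to 275 in the parental line. The leukocyte antigen PTPRC, the acinar enzyme CPA1, the endothelial receptor KDR and insulin were below the floor in both lines. The T-cell gene CD3E at 78.2, the endothelial PECAM1 at 80.6 and the acinar CELA3A at 56.3 (on an _x_at probe set) were above it in the K-ras line alone, against 11.2, 25.3 and 43.1 in the parental line. Of the fibroblast markers THY1 had 100.5 in the K-ras line and 51.7 in the parental line, a log2 ratio of 0.96, and DCN a log2 ratio of 0.51. COL1A1, on an _x_at probe set, went the other way, with 94.6 in the K-ras line and 131 in the parental line. Its log2 ratio was -0.47, and COL1A2 had a bound of 0.13. The part of cell make-up in the values below was not tested.

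The genes lie together on chromosome 16, where the reference annotation (GRCh38.p14) places 16 metallothionein genes and pseudogenes, 11 of them protein-coding, from MT4 to MT1X. MTF1 lies on chromosome 1. RefSeq promoter sequences were at hand for MT2A, MT1H, MT1X and MTF1, and the 250 bases upstream of the start site are shown for the metallothioneins because they carry the elements through which MTF1 is known to act. Capitals mark the metal response element core, TGCACNC or TGCGCNC on either strand, and in MT2A also the AP-1 motif TGACTCA, the target of the FOS and JUN factors. The windows are chr16:56608334-56608583 for MT2A, chr16:56669564-56669813 for MT1H and chr16:56682220-56682469 for MT1X, each on the plus strand of GRCh38.p14 and written 5′ to 3′.
MT2A: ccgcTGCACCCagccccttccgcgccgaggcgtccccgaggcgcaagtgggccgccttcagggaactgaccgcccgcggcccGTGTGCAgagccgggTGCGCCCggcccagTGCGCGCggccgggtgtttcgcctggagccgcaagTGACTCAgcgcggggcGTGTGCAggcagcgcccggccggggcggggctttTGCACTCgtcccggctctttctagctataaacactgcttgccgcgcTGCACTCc
MT1H: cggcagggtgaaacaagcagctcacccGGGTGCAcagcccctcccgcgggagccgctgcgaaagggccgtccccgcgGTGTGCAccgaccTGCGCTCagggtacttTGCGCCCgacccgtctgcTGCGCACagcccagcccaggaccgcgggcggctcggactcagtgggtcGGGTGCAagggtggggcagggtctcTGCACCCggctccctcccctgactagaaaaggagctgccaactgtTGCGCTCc
MT1X: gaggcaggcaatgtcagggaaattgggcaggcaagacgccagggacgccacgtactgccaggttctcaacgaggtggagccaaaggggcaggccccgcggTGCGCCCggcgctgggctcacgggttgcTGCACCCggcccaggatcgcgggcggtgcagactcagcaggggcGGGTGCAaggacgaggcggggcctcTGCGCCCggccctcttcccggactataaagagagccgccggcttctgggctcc
The core was found 7 times in MT2A, 8 times in MT1H and 4 times in MT1X, with no base shared between matches. Of 35116 promoter windows of the same length 24.8% held at least 1 match, 0.370% held at least 4 and 0.0313% at least 7. Overlapping matches in these windows were each counted. The AP-1 motif was found once, in MT2A, shared no base with a metal response element and occurred in 4.20% of all windows. Neither motif was found in the MTF1 window. The core is defined largely from metallothionein promoters, so these matches describe the genes and say nothing about binding in these cells.

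**Figure D1:**
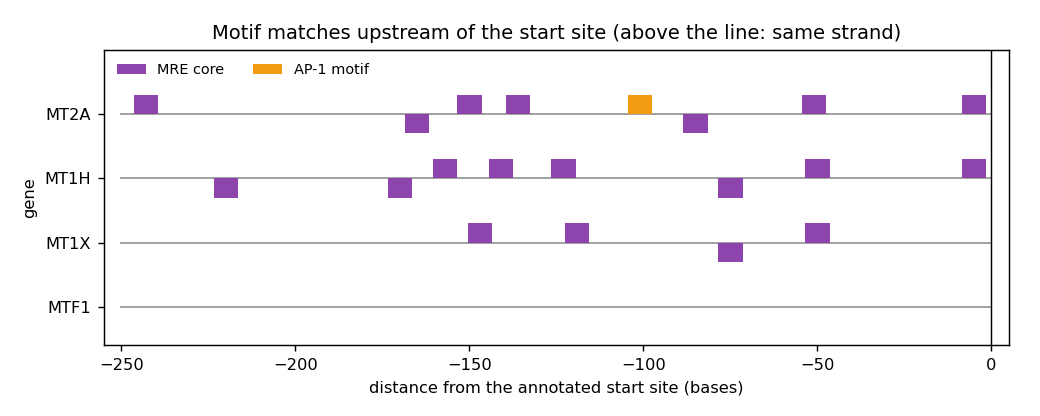
Motif matches in the 250 bases upstream of the annotated start sites of MT2A, MT1H, MT1X and MTF1 (horizontal axis, distance in bases; boxes above the line are on the gene's strand, boxes below on the other). Metal response element cores are purple and the AP-1 motif orange. MT2A has 7 cores, MT1H 8, MT1X 4 and MTF1 none.

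Of the 7 metallothioneins chosen, 6 had signals above the floor in both lines, all from probe sets that can pick up related transcripts. Most differed by less than 2-fold. All 9 measured probe sets of the chosen metallothioneins, which cover 6 genes, had a lower signal in the K-ras line, at 46.7% to 90.8% of the parental signal. Their median log2 ratio was -0.50, a 1.41-fold lower signal. Only 1 of the 9 passed 2-fold lower and none passed 2-fold higher. Outside the chosen genes, MT1HL1 had a log2 ratio of -0.01 and MT3, on a probe set without the _x_at suffix, a bound of 0.61. Among all 12484 measured probe sets 14.2% passed 2-fold lower and 9.85% passed 2-fold higher. With 9 related probe sets, 1 past 2-fold is too few to tell apart from these shares. A K-ras signal below the parental signal was seen in 45.6% of all probe sets above the floor in both lines. All 9 are _x_at probe sets, whose probes can pick up related transcripts, and the metallothionein transcripts are closely related. They are therefore not 9 separate measurements, and the split of signal between the genes is uncertain. Among _x_at probe sets of the whole array 7.60% were at least 2-fold lower, 37.0% of those above the floor in both lines had a lower K-ras signal, and their median log2 ratio was 0.23.

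**Figure D2:**
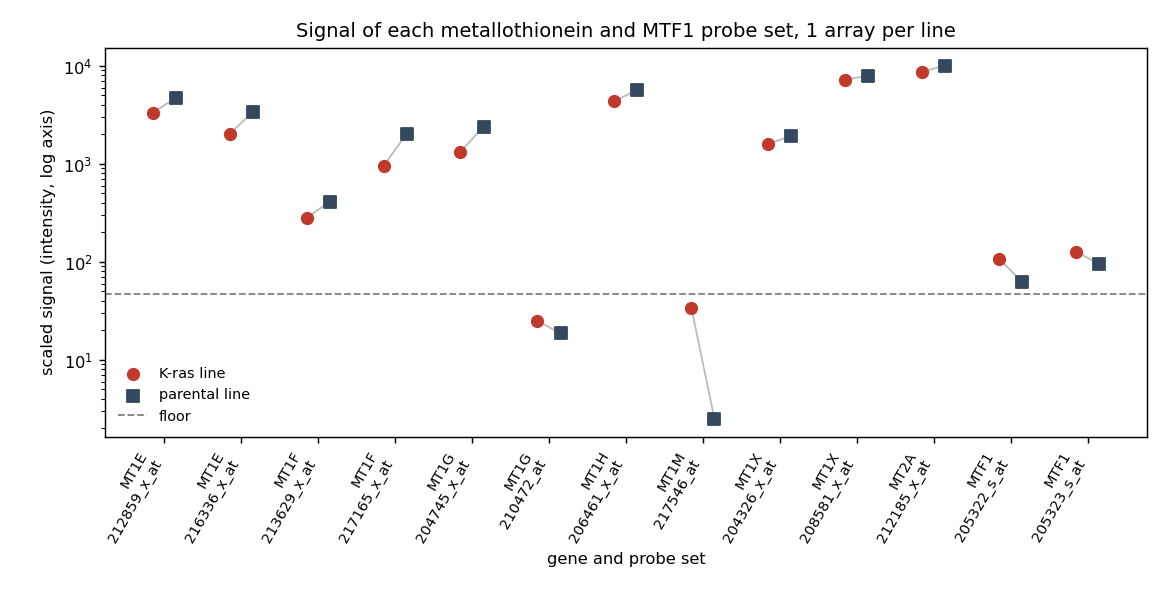
Scaled signal of each of the 13 probe sets (log axis) in the K-ras line (red circles) and the parental line (dark squares), 1 array each, with the floor of 46.9 as a dashed line. The 9 measured metallothionein probe sets are lower in the K-ras line, both MTF1 probe sets are higher, and MT1G 210472_at and MT1M 217546_at lie below the floor in both lines.

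MT2A, the form usually most abundant in human cells, differed little. Its 1 probe set, 212185_x_at, read 8757 in the K-ras line and 10113 in the parental line. The log2 ratio was -0.21, or 1.15-fold lower. This is smaller than the technical spread between probe sets of a gene. The parental signal was above that of 99.9% of probe sets other than controls, and the highest signal on that array was 11552. Whether ratios narrow at such bright signals was not tested. MT1X, an isoform of the MT1 group that metals induce, differed least. Its probe set 208581_x_at gave 7243 in the K-ras line and 7977 in the parental line, a log2 ratio of -0.14. That parental signal was above that of 99.7% of probe sets other than controls, so the same limit holds. A further probe set annotated to MT1X, 204326_x_at, gave 1599 in the K-ras line and 1942 in the parental line, a log2 ratio of -0.28. The annotation pairs that probe set with a RefSeq transcript which the reference assigns to the pseudogene MT1L, so its gene is in doubt. The ratios of these probe sets were 0.14 apart on the log2 scale.

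MT1F, one of the MT1 isoforms, held the one value past 2-fold. Probe set 217165_x_at read 952 in the K-ras line and 2036 in the parental line, 2.14-fold lower with a log2 ratio of -1.10. The other MT1F probe set, 213629_x_at, had 281 in the K-ras line and 413 in the parental line, a log2 ratio of -0.55. Both were lower, but the ratios were 0.54 apart on the log2 scale, and only one of them passed the threshold. MT1G, an MT1 isoform often silenced in tumours, was next. Its _x_at probe set 204745_x_at gave 1329 in the K-ras line and 2409 in the parental line, 1.81-fold lower with a log2 ratio of -0.86. The MT1G probe set without that suffix, 210472_at, had 25.1 in the K-ras line and 18.6 in the parental line, below the floor in both. The MT1G transcript was thus measured only where related transcripts can contribute.

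MT1E, another metal-inducible isoform, had a pair of probe sets that both gave a lower signal. Probe set 216336_x_at had 2029 in the K-ras line and 3384 in the parental line, a log2 ratio of -0.74. Probe set 212859_x_at had 3337 in the K-ras line and 4707 in the parental line, a log2 ratio of -0.50. Their ratios were 0.24 apart on the log2 scale, within the technical spread. MT1H was measured by 206461_x_at alone, at 4398 in the K-ras line and 5683 in the parental line, a log2 ratio of -0.37. MT1M was not measured. Its probe set 217546_at, which lacks the _x_at suffix, had 34.0 in the K-ras line and 2.50 in the parental line, both under the floor, so no ratio is given. The 2 probe sets of these 7 metallothioneins without the suffix were thus both below the floor, and none of their values above it comes from a probe set free of the suffix.

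The regulator went the other way in value. MTF1 probe set 205323_s_at read 127 in the K-ras line and 95.1 in the parental line, a log2 ratio of 0.42. Probe set 205322_s_at had 108 in the K-ras line and 62.1 in the parental line, 1.74-fold higher with a log2 ratio of 0.80. Both MTF1 probe sets were higher in the K-ras line and neither passed 2-fold. The ratio of 205323_s_at is smaller than the technical spread of 0.46 between probe sets of a gene. The parental signal of 205322_s_at lies not far above the floor of 46.9. All probe sets above the floor in both lines had a median log2 ratio of 0.10. The transcript level of MTF1 is no measure of its activity, which is known to be set by zinc. MTF2, which shares the name but serves a Polycomb complex, had a log2 ratio of -1.22 in 203345_s_at, at 66.7 in the K-ras line and 156 in the parental line. Its other measured probe sets did not pass 2-fold, with a log2 ratio of -0.71 in 209705_at and bounds of -0.97 and -0.20 in 203346_s_at and 203347_s_at.

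**Figure D3:**
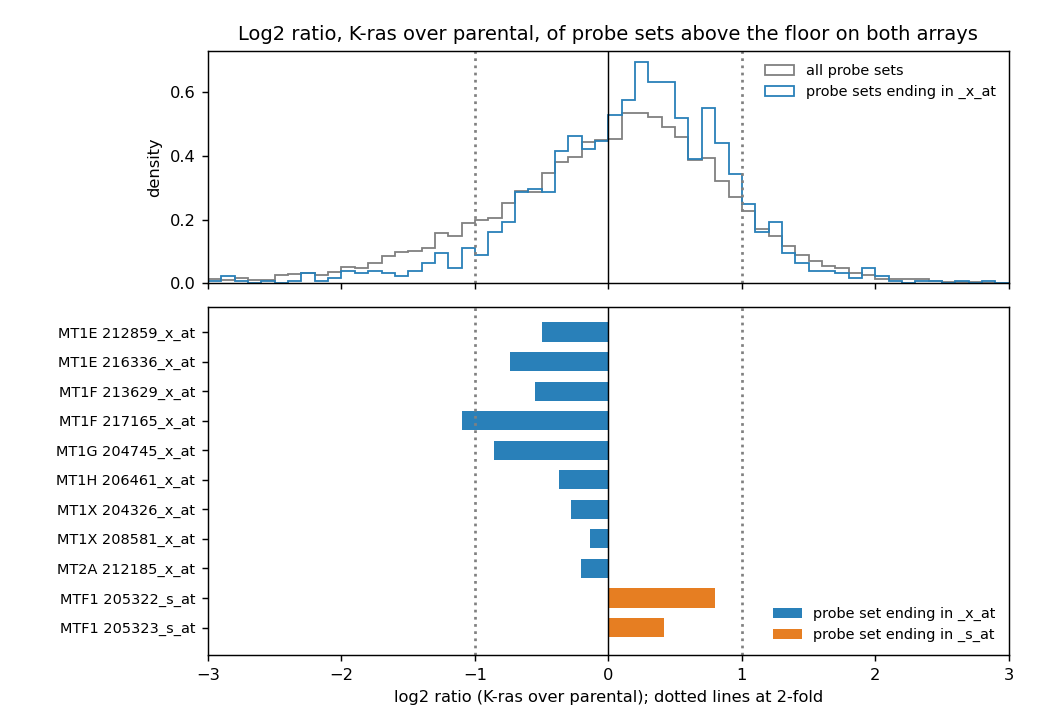
Upper panel, distribution of the log2 ratio (K-ras over parental) over 9416 probe sets above the floor in both lines (grey) and over the 1253 of them ending in _x_at (blue), drawn between -3 and 3. Lower panel, the ratios of the 9 measured metallothionein probe sets, all below 0 with MT1F 217165_x_at at -1.10, and of the 2 MTF1 probe sets, at 0.80 and 0.42.

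The sign of the smallest differences depended on the scaling. Quantile normalization and a loess curve left all 9 below a log2 ratio of 0. Median centring did too, but it lowers every ratio by a constant here and so could not raise one above 0. Scaling on the mean log2 signal of 100 maintenance probe sets did not leave all 9 below 0. It moved the median of all probe sets above the floor in both lines to 0.26. There 208581_x_at of MT1X had a log2 ratio of 0.06, MT2A -0.01 and MT1F 217165_x_at -0.90, so that no metallothionein passed 2-fold. Under quantile normalization and the loess curve, which do not shift all probe sets by a constant, all 9 also lay below the median of all probe sets above the floor in both lines. Quantile normalization and a loess curve gave MT2A log2 ratios of -0.41 and -0.43. A total of 8 of the 9 had signals of at least 900 on both arrays, a limit chosen after the values were seen. The 845 probe sets of the array that reached it had a median log2 ratio of 0.12, and 41.9% of them had a lower K-ras signal.

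**Figure D4:**
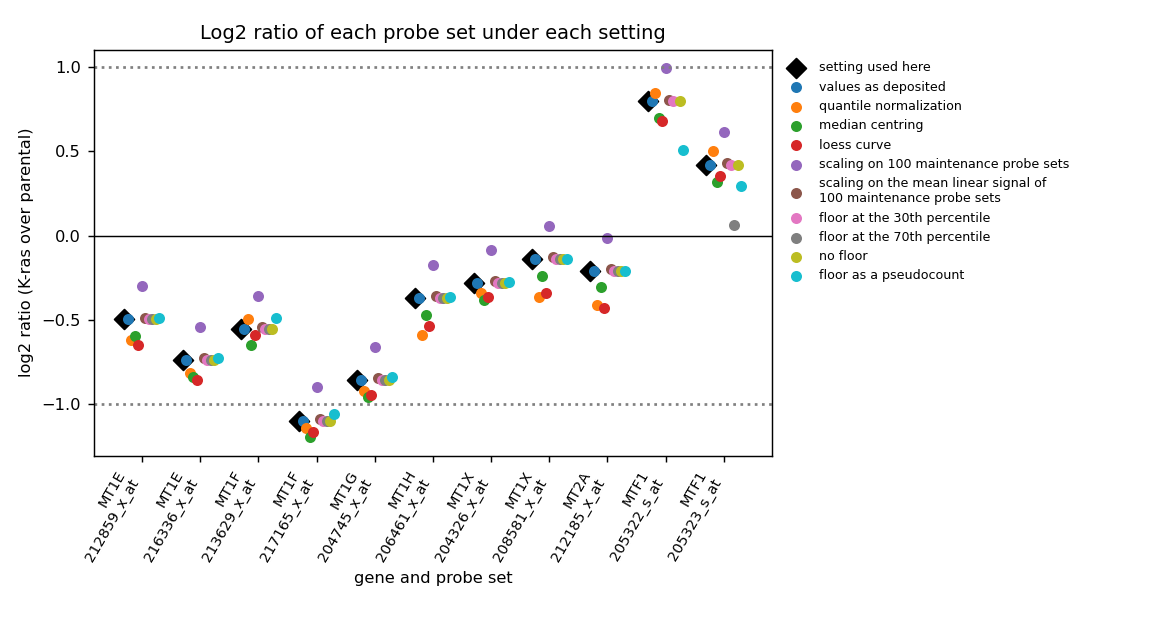
Log2 ratio (K-ras over parental) of each measured probe set under the setting used here (black diamonds) and the alternatives (coloured circles), with dotted lines at 2-fold. Scaling on 100 maintenance probe sets lies highest, with MT1X 208581_x_at at 0.06, and MT1F 217165_x_at is the one metallothionein plotted that passes 2-fold under any setting.

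Of the other family members 2 were measured, and neither passed 2-fold in either direction. MT1HL1, a copy related to MT1H, was measured by an _x_at probe set at 5459 in the K-ras line and 5512 in the parental line, a log2 ratio of -0.01. MT3, known chiefly from brain, had 71.4 in the K-ras line and 37.1 in the parental line, at least 1.52-fold higher. MT4, known from squamous epithelium, was below the floor in both lines. Of the other 7 metallothionein genes and pseudogenes listed, none had a probe set with that single symbol. The 10 measured genes nearest to the cluster, 5 on each side, had a median log2 ratio of -0.23, with 7 of them below 0, 1 at least 2-fold higher and none at least 2-fold lower. The nearest measured gene before MT4 was OGFOD1, an oxygenase, with 177 in the K-ras line and 261 in the parental line, a log2 ratio of -0.56. The nearest measured gene after MT1X, the nuclear pore protein NUP93, had 242 in the K-ras line and 463 in the parental line, a log2 ratio of -0.94. The endoplasmic reticulum stress gene HERPUD1 was 2.25-fold higher. With 2 arrays the pattern of a gene is a single ratio, and the nearest to that of MT2A were AZIN1, THYN1 and RPS24, each with a log2 ratio of -0.21. Such likeness is common, since 243 of 5995 genes lay within 0.05 of MT2A.

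Zinc transporters did not move one way. Among all 7693 measured genes 9.97% passed 2-fold higher and 14.4% passed 2-fold lower, with a median log2 ratio of 0.10. Of 7 zinc exporters with a probe set 3 were measured, none at least 2-fold higher and 1 lower. SLC30A1, the exporter of the plasma membrane and an MTF1 target itself, had 98.7 in the K-ras line and 152 in the parental line, a log2 ratio of -0.63 and under 2-fold. SLC30A9, a mitochondrial member of that family, had 63.1 in the K-ras line and 176 in the parental line, 2.79-fold lower. SLC30A5, which loads zinc into the secretory pathway, had a log2 ratio of 0.96 on an _x_at probe set, but -1.08 on another, and its direction is not settled. Of 7 measured zinc importers 1 was at least 2-fold higher and 2 were lower, with a median log2 ratio of -0.07.

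Log2 ratios of the measured importers ran from -1.67 to 1.54, against -1.10 to -0.14 for the measured probe sets of the chosen metallothioneins. SLC39A4, which takes up dietary zinc and is known to be raised in pancreatic carcinoma, had 305 in the K-ras line and 105 in the parental line, 2.90-fold higher. SLC39A6 had 202 in the K-ras line and 641 in the parental line, 3.17-fold lower, with -1.12 on the log2 scale from a further probe set. SLC39A8, which also carries cadmium and manganese, had 53.7 in the K-ras line and 121 in the parental line, 2.26-fold lower, with -0.81 on the log2 scale from a further probe set. The importers under 2-fold were SLC39A1 with a log2 ratio of 0.50, SLC39A7 with 0.37, SLC39A14 with -0.15 and SLC39A9 with a bound of -0.07. The copper list had 11 measured genes, with none at least 2-fold higher and 2 lower, and a median log2 ratio of -0.38. Among all measured genes the shares were 9.97% higher and 14.4% lower, with a median of 0.10. Lower were CUTC, at 69.5 in the K-ras line and 234 in the parental line, and STEAP1, of the metalloreductase family, at 227 and 649. CCS, the copper chaperone of SOD1, had a log2 ratio of -0.96 and SOD1 itself -0.42. SCO2, which delivers copper to cytochrome oxidase, had 0.70.

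Genes linked to MTF1 outside the family, several of them known only from mouse, went both ways. Of 6 measured, 2 were at least 2-fold higher and 1 was lower, with a median log2 ratio of 0.26. Among all measured genes the shares were 9.97% higher and 14.4% lower, with a median of 0.10. NDRG1, a stress-responsive gene with many other inducers, had 4932 in the K-ras line and 538 in the parental line. CSRP1, a LIM domain protein, had 1989 in the K-ras line and 576 in the parental line, 3.45-fold higher. GCLC, the catalytic subunit of glutathione synthesis, had 99.7 in the K-ras line and 226 in the parental line, 2.27-fold lower, with -0.87 on the log2 scale from a further probe set. It no longer counted as lower with scaling on 100 maintenance probe sets, with the floor at the 70th percentile, with the floor as a pseudocount or without _x_at and _s_at probe sets. Selenoprotein SELENOW had a log2 ratio of -0.08, and the growth factor PGF 0.59 on an _x_at probe set with another at 1.35. SLC30A1, given above, is the remaining measured member.

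**Figure D5:**
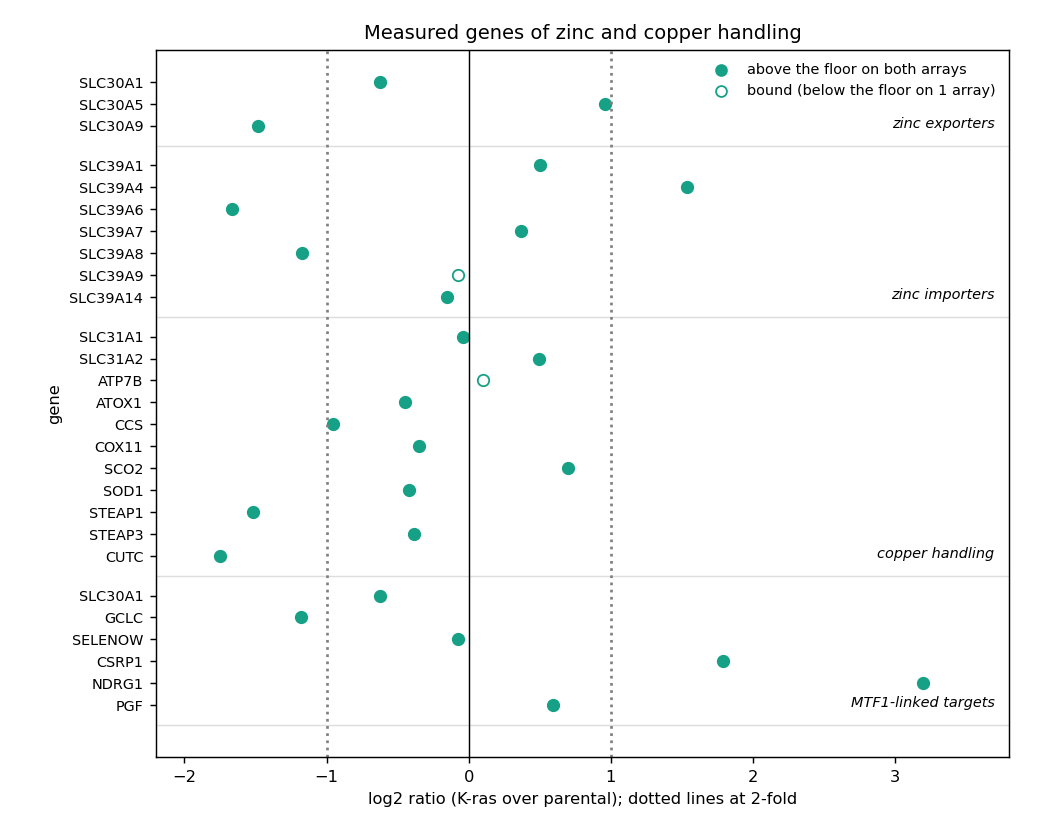
Log2 ratio (K-ras over parental) of the measured zinc exporters, zinc importers, copper-handling genes and MTF1-linked targets, with filled points for genes above the floor in both lines, open points for bounds and dotted lines at 2-fold. NDRG1, CSRP1 and SLC39A4 lie above 2-fold and CUTC, SLC39A6, STEAP1, SLC30A9, GCLC and SLC39A8 below.

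Signals known to raise metallothionein transcripts were looked at through lists of other genes that respond to these signals. Over all 7693 measured genes 9.97% passed 2-fold higher and 14.4% passed 2-fold lower, with a median log2 ratio of 0.10. Of 12 measured heavy metal and oxidant stress genes 1 passed 2-fold higher and 4 passed 2-fold lower, with a median log2 ratio of -0.52. Haem oxygenase HMOX1, a classical cadmium-induced gene, had 97.3 in the K-ras line and 62.2 in the parental line, a log2 ratio of 0.65 and under 2-fold. The chaperone HSPH1 was at least 8.57-fold lower, the glutathione synthesis subunit GCLM 2.66-fold and thioredoxin reductase TXNRD1 2.48-fold, while the stress factor ATF3 was 6.94-fold higher. The fourth lower gene, the cystine carrier SLC7A11, had a log2 ratio of -1.23, but 1.39 in another probe set. Of 11 measured glucocorticoid-responsive genes 4 passed 2-fold higher and 3 passed 2-fold lower, with a median log2 ratio of -0.19. The 3 lower genes were SGK1, ANGPTL4 and NR3C1, the last listed as the receptor and not as an induced gene. Higher were DUSP1, ZFP36, TSC22D3 and CEBPD, of which DUSP1 and ZFP36 are also early targets of MAP kinases. TSC22D3, a glucocorticoid-induced leucine zipper protein, had 452 in the K-ras line and 131 in the parental line. FKBP5, a sensitive glucocorticoid target, had 9.60 in the K-ras line and 76.6 in the parental line, at least 1.63-fold lower. The receptor NR3C1 itself had 112 in the K-ras line and 344 in the parental line on an _x_at probe set, 3.07-fold lower, and on the log2 scale the remaining probe sets lay between -1.12 and -0.84. SGK1 and ANGPTL4 were 2.36-fold and 2.87-fold lower.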

How the data were processed

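Total RNA of 1 K-ras and 1 parental H6c7 culture was hybridised to U133A arrays, after phenol and chloroform extraction and column clean-up per the labels. The authors deposited 1 linear intensity per probe set and array. No source used here names the software. Its mean without the lowest and highest 2% was 150.06 in both deposited columns, so both were taken as already scaled, and both were brought to exactly the same trimmed mean. Genes were named through the array annotation, which gives exactly 1 symbol to 19071 probe sets, and matched to the RefSeq table of GRCh38.p14, whose promoter table also gave the sequences. All probe sets of the members are reported. For other genes the probe set with the highest mean log2 signal was used. A gene or probe set below the floor on both arrays was not measured. Ratios are K-ras over parental, with no test, p-value or standard error at 1 array per line, whose number limits the precision. Named genes are all members, up to 4 measured genes of each list with the largest ratios, the transporters and metallothioneins behind each count, 5 measured genes on each side of the cluster and the 3 genes nearest to MT2A in log2 ratio. Other list genes were named after their values were seen. The members and lists were chosen with earlier results of these data known. The alternatives, 13 planned and 1 added after the data were seen, covered scaling, floor, threshold and probe set choice. The procedure was tested on simulated arrays with 3-fold differences planted in bright probe sets. Smaller differences, signals near the floor and probe sets that pick up related transcripts were not covered. The loess curve came from statsmodels 0.14.6, the ranks of quantile normalization from scipy 1.17.1 and figures from matplotlib 3.10.9. All else came from pandas 2.3.3 and numpy 2.4.6 under Python 3.11.15.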

Additional observations from a re-analysis of the deposited data

How the results depend on the processing

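The median log2 ratio of the metallothionein probe sets was negative under each of the 10 alternatives that keep them, though changes of the floor leave the ratios of probe sets far above it as they are or nearly so. Values as deposited gave the same median, -0.50, since both arrays were already scaled alike. Median centring lowers every ratio by a constant, so it could not turn a negative median. The count at least 2-fold lower, 1 of 9, became 0 with scaling on the mean log2 signal of 100 maintenance probe sets and at a threshold of 3-fold. With no floor 1 probe set, MT1M 217546_at, passed 2-fold higher, at a log2 ratio of 3.77 between signals of 34.0 in the K-ras line and 2.50 in the parental line. With the mean linear signal of the same 100 probe sets as the scale, an alternative chosen after seeing the data, the count stayed at 1. Without _x_at probe sets none of the 7 metallothioneins analysed remained above the floor, so no value could be given, and without _s_at probe sets none for MTF1. The MTF1 log2 ratio of 205323_s_at was 0.06, a bound, with the floor at the 70th percentile and up to 0.61 elsewhere. No paired analysis was possible because each line has 1 array. Among the metal-handling lists, the median of the zinc exporters was -0.63 over 3 measured genes. It turned to 0.21 with no floor and 0.01 with the floor as a pseudocount, where genes below the floor bring the number to 7. Quantile normalization and scaling on the mean log2 signal of 100 maintenance probe sets each put 1 zinc exporter past 2-fold higher. The median of the MTF1-linked genes turned to -0.35 without _x_at and _s_at probe sets. Dim probe sets limit what can be said of MT1M, MT3 and the zinc transporters near the floor.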

Other observations

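Metal response element cores are not confined to metallothioneins. Among measured genes with a promoter window, 155 held at least 3 cores in the 250 bases upstream, the members MT2A, MT1H and MT1X included. Without these 3, 152 genes remained, of which 14 passed 2-fold higher in the K-ras line and 30 passed 2-fold lower, with a median log2 ratio of 0.12. Over all 6376 measured genes with a window, 625 were higher and 950 lower, with a median of 0.09. With at least 4 cores there were 32 genes other than members, 7 higher and 8 lower, with a median of 0.30. The window of CARS2, a mitochondrial cysteinyl-tRNA synthetase, held 12 cores, more than MT1H, and its signal was 231 in the K-ras line and 254 in the parental line, a log2 ratio of -0.14. Overlapping matches were each counted, and overlap was checked for the members alone and not for CARS2. The threshold numbers of cores and CARS2 were chosen after their values were seen.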
